A study of Mus musculus with 2 samples.

Results

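The genes described here are 10 of the 35275 genes in the deposited read count table, taken by symbol. They are 7 genes of the MHC class I pathway (B2m, H2-K1, H2-D1, Tap1, Tap2, Tapbp and Nlrc5), 2 genes of the class II pathway (H2-DMa and H2-Ob) and Cd86, a gene of the B7 family. All 10 had reads in both libraries and all 10 reached the minimum of 50 reads over both, as did 9999 genes of the table. The samples are TEa cells of the C57BL/6 strain, CD4 T cells whose transgenic receptor sees an I-E alpha peptide from BALB/c mice. Effector cells came from WT C57BL/6 hosts that also received skin from a Balb/c donor. Cells of the library labelled Exhaust, called exhausted here after its label, came from CB6F1 hosts, hybrids of BALB/c and C57BL/6 that carry the antigen in their own cells. All cells were adoptively transferred and sorted from splenocytes, and each group is 1 library, with 7844445 counted reads for the effector and 8508129 for the exhausted library. The amount of antigen, the recipient strain and the graft differ together between the groups and cannot be told apart. For the sort gate, the time after transfer, the age of the mice and the number of mice behind a library, nothing was found in the labels. Since there is 1 library per group, no difference below has a replicate check and no p-value is given. Intervals are exact 95% intervals that cover counting error only.

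MHC class I molecules are found on nearly all nucleated cells, T cells included, and show peptides from inside the cell to CD8 T cells. The peptides are cut by the proteasome, pumped into the endoplasmic reticulum by the TAP transporter and loaded onto a heavy chain bound to beta-2 microglobulin. NLRC5 switches on the class I genes, and its relative CIITA switches on the class II genes. Class II molecules and the B7 protein CD86 belong mainly to cells that present antigen to CD4 T cells, such as B cells and dendritic cells. Mouse T cells are known for abundant class I and, unlike activated human T cells, for little class II of their own. CD86 binds CD28 and CTLA-4 on T cells and can itself be found on activated T cells.

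The class I genes are known to share control elements near their starts, so the letters of these elements are shown first. Each line holds 120 bases before the transcription start in RefSeq (build GRCm38.p6), 5′ to 3′ along the gene. The lines are placed so that TGACG, the core letters of a cyclic AMP response element, as in the X2 box, or ATTGG, the Y box read on the gene's strand, falls in the same column. Capitals mark the letters found, except that TGATG, searched later, is marked in H2-Ob alone. They are chr17:34000348-34000467 on the minus strand for H2-K1, chr17:35262914-35263033 on the plus strand for H2-D1 and chr2:122147530-122147649 on the plus strand for B2m. Tap1 lies at chr17:34187391-34187510 and H2-Ob at chr17:34238744-34238863, both on the plus strand.
H2-K1: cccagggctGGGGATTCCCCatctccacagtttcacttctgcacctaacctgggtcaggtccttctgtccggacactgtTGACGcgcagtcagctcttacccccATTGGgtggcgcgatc
H2-D1: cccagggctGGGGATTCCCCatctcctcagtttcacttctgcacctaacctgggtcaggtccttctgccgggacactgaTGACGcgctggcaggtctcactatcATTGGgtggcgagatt
B2m: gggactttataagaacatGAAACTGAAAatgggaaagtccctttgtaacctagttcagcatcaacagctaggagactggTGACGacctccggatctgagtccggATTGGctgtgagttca
Tap1: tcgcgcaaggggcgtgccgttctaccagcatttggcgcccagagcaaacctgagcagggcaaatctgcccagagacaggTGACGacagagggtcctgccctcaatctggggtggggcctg
H2-Ob: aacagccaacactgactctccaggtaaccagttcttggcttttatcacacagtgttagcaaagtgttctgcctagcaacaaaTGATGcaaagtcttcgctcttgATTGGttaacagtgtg

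The windows of H2-K1 and H2-D1 were identical at 107 of 120 bases (89.2%). Both held the kappa B palindrome, the first run of capitals, which occurs in 10 of the 32851 windows of 250 bases in the RefSeq table (0.0304%, both strands). Those 10 windows belong to 5 genes, of which 3 are class I genes, namely H2-K1, H2-D1 and H2-Q6. TGACG was followed after 20 bases by ATTGG in H2-K1, H2-D1 and B2m. That arrangement, noticed in these windows and then counted on the gene's strand, stood in 18 windows of 15 genes (0.0548% of windows), and the class I-like gene H2-M3 was the other MHC gene among them. B2m alone of the 7 members with a window held the core letters of the interferon-stimulated response element, found in 2.98% of all windows. Tap1 held TGACG, which 17.8% of windows hold, without ATTGG in the printed stretch. CCAAT, the Y box on the other strand, was in 33.9% of all windows and in a window of each of the 7 members. H2-Ob had ATTGG from position -57 before its start and TGATG from position -79. TGATG was searched after this window was seen, and 34.5% of windows hold it. It stood in a window of 5 of the 7 members, namely B2m, Tap1, H2-D1, H2-DMa and H2-Ob. In B2m it lies unmarked in the printed stretch, on the other strand from position -99. TGATG also overlaps TGACG in H2-D1, where the marked letters are those of TGACG. The letters TTCNNNGAA, the core of the gamma-activated site, and the only 10-base kappa B form searched were in no member's window. They were in 7.02% and 0.320% of all windows. Other 10-base kappa B forms were not searched, so a member's window, that of B2m included, can still hold one. Each element was searched by exact letters only, so a member without a match can still hold another form of it. These matches are descriptions of letters and not evidence of binding. Starts can differ between annotations: the RefSeq start of H2-D1 lies 364 bases inside the gene as the count table gives it. For Tapbp the gap was 3579 bases, and for H2-DMa the windows lay 9664 and 12350 bases upstream of the table's start. Windows of Tap2, Nlrc5 and Cd86 were not used here.

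**Figure D1:**
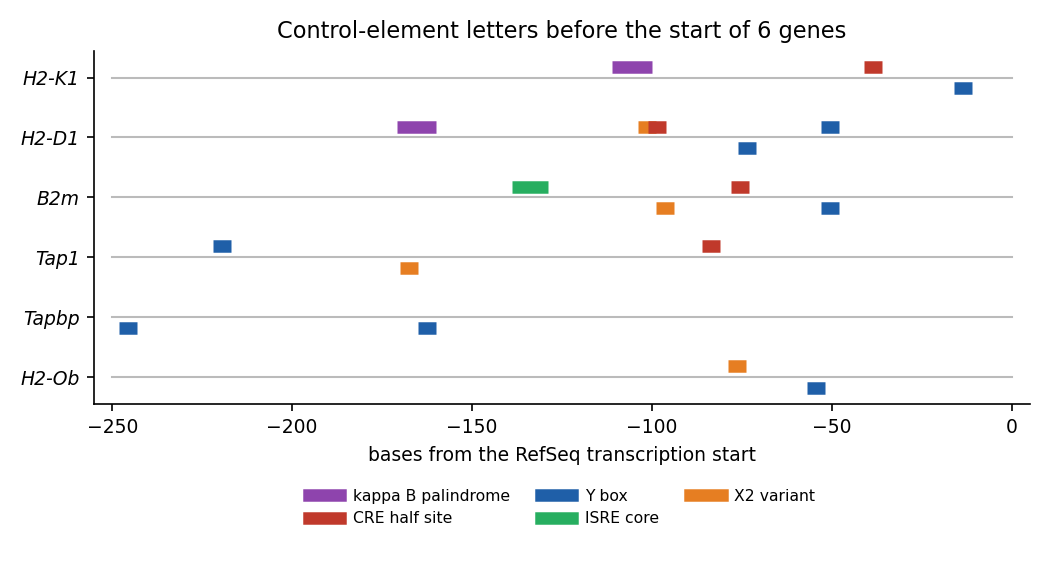
Position of control-element letters in the 250 bases before the RefSeq start of 6 members, with bases from the start on the x axis; marks above a line are on the gene's strand and marks below it on the other strand. In H2-K1, H2-D1 and B2m TGACG (red) and the Y box (blue) lie the same distance apart.

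The main difference between the 2 sides was one of size: the class I genes were abundant and within 2-fold of equal, whereas Cd86 and H2-Ob were low and fell strongly in the exhausted library. A gene counts as higher or lower when its scaled reads differ by at least 2-fold and the counting interval excludes equality. None of the 7 class I members was higher or lower by that rule. Over all measured genes 7.07% were lower and 6.65% higher, and in the 4069 most abundant genes (1000 reads or more in total), to which each class I member belongs, 4.15% were lower. Of the other 3 members, Cd86 and H2-Ob were lower and H2-DMa was neither. Among the 5930 measured genes with fewer than 1000 reads, to which these 3 belong, 9.07% were lower. The median log2 ratio of exhausted to effector was -0.37 over the class I members and -2.65 over the other 3, against -0.002 over all measured genes. With 7 and 3 genes these medians are descriptions of the members and not tests.

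**Figure D2:**
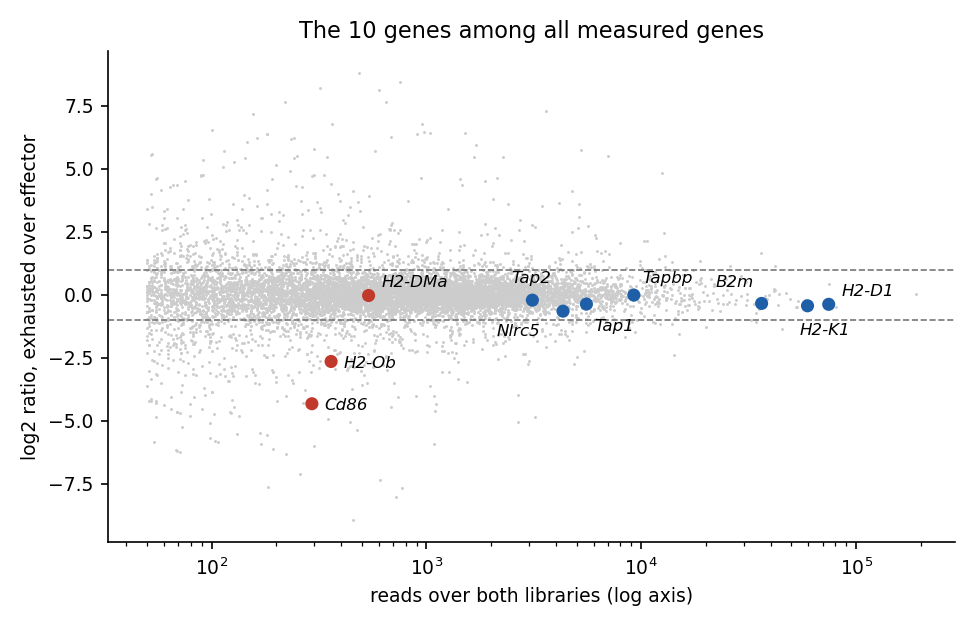
Log2 ratio of exhausted to effector library against reads over both libraries (log axis) for the 9999 measured genes (grey), with the class I members in blue and Cd86, H2-Ob and H2-DMa in red; dashed lines mark 2-fold. The blue points lie inside the dashed lines at high read numbers, and Cd86 and H2-Ob lie well under the lower one.

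Both classical heavy chain genes were among the most abundant genes of these cells. H2-D1 (ENSMUSG00000073411, mm10 chromosome 17, 35262730 to 35267499), which encodes the heavy chain of H-2D, had 40662 effector and 33858 exhausted reads. It ranked 3 and 4 by reads among all genes of the table, with 0.518% and 0.398% of all counted reads. Its level was 1.30-fold lower in the exhausted library (1.28 to 1.32). H2-K1 (ENSMUSG00000061232, chromosome 17, 33996017 to 34000333), which encodes the heavy chain of H-2K, had 32993 and 26383 reads and ranked 4 and 8. It was 1.35-fold lower (1.33 to 1.37). B2m (ENSMUSG00000060802, chromosome 2, 122147686 to 122153083) encodes beta-2 microglobulin, the light chain that heavy chains need to reach the surface. It had 19581 and 16717 reads and was 1.27-fold lower (1.24 to 1.29). The effector library was thus the higher of the 2 for all 3 chains, by margins beyond counting error and short of 2-fold. The size of the spread between animals is unknown, so these margins cannot be set against it.

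The chains kept nearly the same proportions in both libraries. Levels per length are given as RPKM, computed here from scaled reads and the gene length in the table. B2m was at 2899 RPKM in the effector and 2288 in the exhausted library. H2-D1 was at 2463 and 1896 RPKM, and H2-K1 at 2241 and 1657. H2-D1 therefore stood at 1.099 times H2-K1 in the effector and at 1.14 times in the exhausted library. B2m stood at 0.616 and 0.644 of the 2 heavy chains summed.

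Genes of peptide transport and loading were at lower levels than the chains they serve. Tapbp (ENSMUSG00000024308, chromosome 17, 33915899 to 33929288) encodes tapasin, which bridges the empty class I molecule and TAP. It had 4453 and 4779 reads, which after scaling was equal within counting error (1.01-fold lower, 0.967 to 1.05). Its log2 ratio was -0.01, and it turned positive with DESeq2 size factors (0.013) and upper-quartile scaling (0.0013). Tap1 (ENSMUSG00000037321, chromosome 17, 34187553 to 34197225) encodes one of the paired chains of the peptide pump. It had 3021 and 2534 reads and was 1.29-fold lower (1.22 to 1.36). Tap2 (ENSMUSG00000024339, chromosome 17, 34203527 to 34216321), which encodes the other chain, had 1609 and 1503 reads and was 1.16-fold lower (1.08 to 1.24). The intervals of Tap1 and Tap2 did not overlap Tapbp's, and Tap1's overlapped that of B2m. Per length, Tap1 stood at 1.65 times Tap2 in the effector library and at 1.48 times in the exhausted library.

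Nlrc5 (ENSMUSG00000074151, chromosome 8, 94472763 to 94527272), the transactivator gene of class I, had the lowest ratio of the 7. It had 2557 effector and 1764 exhausted reads and was 1.57-fold lower (1.48 to 1.67). Its interval lay apart from those of the 6 other class I members, so its ratio was lower than theirs by more than counting error. Counted from the lowest ratio, Nlrc5 ranked 1214 of the 9999 measured genes. The corresponding ranks were 1912 for H2-K1, 2184 for H2-D1, 2233 for Tap1 and 2401 for B2m. Tap2 ranked 3215 and Tapbp 4904. The median absolute log2 ratio was 0.32 over all measured genes and 0.26 over those with 1000 reads or more. The log2 ratios of Nlrc5 (-0.65), H2-K1 (-0.44), H2-D1 (-0.38), Tap1 (-0.37) and B2m (-0.34) were larger in size than both.

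**Figure D3:**
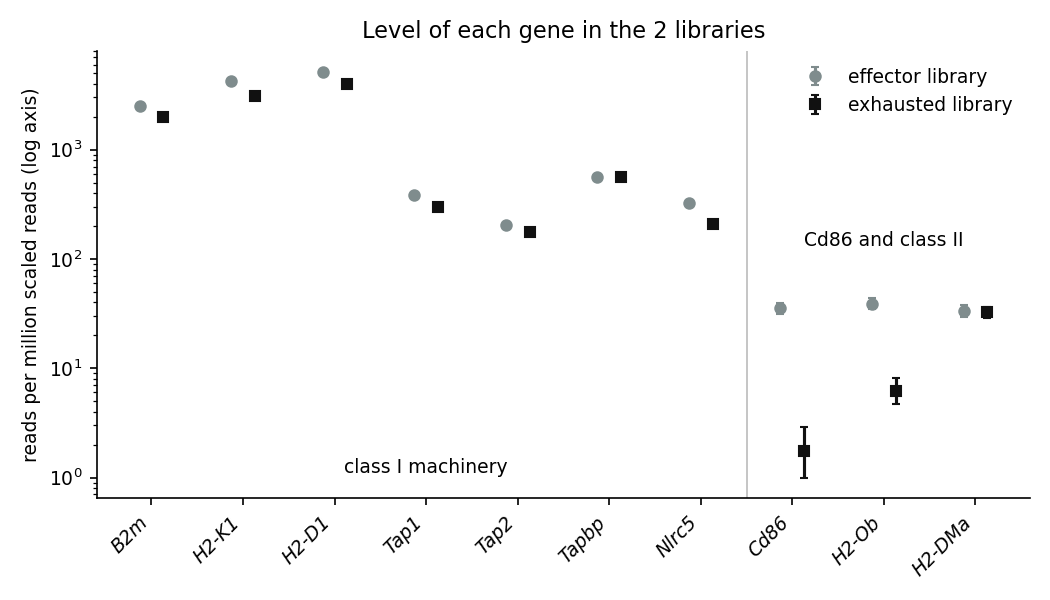
Scaled read level (RPM, log axis) of each of the 10 genes in the effector library (grey circles) and the exhausted library (black squares), with exact Poisson 95% intervals as error bars, which are smaller than the symbols for the class I genes. Pairs of symbols are close for the 7 class I genes and H2-DMa and far apart for Cd86 and H2-Ob.

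Cd86 (ENSMUSG00000022901, chromosome 16, 36603869 to 36666081) had 278 effector and 15 exhausted reads. It was 20.05-fold lower in the exhausted library (11.9 to 36.3) and ranked 46 from the lowest ratio. H2-Ob (ENSMUSG00000041538, chromosome 17, 34238903 to 34245907) encodes the beta chain of H2-O, which restrains peptide loading by H2-DM and is best known from B cells. It had 307 effector and 53 exhausted reads. It was 6.27-fold lower (4.67 to 8.55) and ranked 144 from the lowest ratio. H2-DMa (ENSMUSG00000037649, chromosome 17, 34135182 to 34139101) encodes the alpha chain of H2-DM, which loads peptides onto class II molecules. With 261 and 277 reads it was equal within counting error (1.02-fold lower, 0.857 to 1.21). These 3 genes thus had similar read numbers in the effector library and very different ones in the exhausted library.

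Markers of other cell types were counted beside these results, since B cells, dendritic cells and macrophages are known to express Cd86, H2-Ob and H2-DMa. The 10 T cell markers summed to 110441 effector and 106869 exhausted reads, the most from Trbc2 (29944 and 27705). Of these markers 2 were called lower, Trac (22526 and 11561, 2.11-fold) and Thy1 (835 and 372, 2.43-fold), and 0 higher. Over all measured genes 7.07% were lower and 6.65% higher. Cd4 had 9272 and 15463 reads. Of the CD8 markers Cd8a had 0 in both and Cd8b1 164 and 81, which was called lower.

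The 13 B cell markers in the table summed to 7801 and 4008 reads, nearly all from Ighm (7540 and 3851, 2.12-fold lower). The markers Ms4a1, Blk and Fcer2a had 0 reads in both libraries, and without Ighm and Igkc the other 11 summed to 38 and 24. The 8 dendritic cell markers summed to 43 and 39 reads, the most from Zbtb46 (22 and 26), with Clec9a, Siglech and Batf3 at 0 in both. The 11 macrophage and monocyte markers summed to 85 and 27, the most from Lyz2 (37 and 10), with Spic, Marco and Fcgr1 at 0 in both. The B cell and macrophage sums were lower in the exhausted library, as Cd86 and H2-Ob were, and the dendritic cell sum was nearly the same in both. Neutrophil markers summed to 65 and 4 reads (S100a9, 32 and 2; Ly6g and Retnlg at 0), and erythroid and platelet markers to 120 and 16 (Hba-a1, 50 and 6). Plasma cell markers summed to 864 and 1693, nearly all from Xbp1 (817 and 1673), while Jchain had 47 and 20 (2.54-fold lower) and Sdc1 and Tnfrsf17 were at 0. NK cell markers summed to 94 and 239, and their members differed in direction: Klrb1c had 36 and 229 reads, Eomes 53 and 10 (5.73-fold lower), Ncr1 5 and 0, and Klra8 0 in both. The part of these cells in the ratios of Cd86 and H2-Ob was not tested. In bulk RNA, fewer cells that express a gene and less of its RNA per cell cannot be told apart.

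Ordered by level per length, the 10 genes kept the same order in both libraries. After B2m, H2-D1 and H2-K1 came Tapbp (196 and 194 RPKM), Tap1 (98.3 and 76.3), Tap2 (59.5 and 51.4) and Nlrc5 (46.9 and 29.9). H2-DMa followed with 21.4 effector and 20.97 exhausted RPKM. H2-Ob had 14.6 and 2.34, and Cd86 had 13.9 and 0.695. In the effector library the counting intervals of H2-Ob (13.04 to 16.4) and Cd86 (12.3 to 15.7) overlapped, so these neighbours did not differ beyond counting error. All other neighbours in either library had intervals that did not overlap. H2-DMa was at 1.53 times the per-length level of Cd86 in the effector library and at 30.2 times in the exhausted library.

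Class I heavy chain and class I-like genes did not all go in the same direction. Of 19 such genes listed, H2-K1 and H2-D1 included, 13 were measured: 1 was called higher, 3 lower, and 9 came under neither call. The shares over all measured genes were 6.65% higher and 7.07% lower. Of the 13 genes, 10 had a log2 ratio below 0, as did 50.2% of all measured genes. The median log2 ratio of the list was -0.53. Cd1d1, which encodes a molecule that shows lipids to NKT cells, had 602 and 163 reads and was 3.99-fold lower (3.35 to 4.78). Mr1, whose product shows vitamin B metabolites to MAIT cells, had 162 and 71 reads and was 2.47-fold lower (1.86 to 3.31). H2-T22 had 1618 and 853 reads and was 2.05-fold lower (1.89 to 2.23). The higher gene, H2-Q2, had 31 and 179 reads and was 5.34-fold higher (3.63 to 8.09). The neighbouring genes H2-Q6 and H2-Q7 differed in direction. H2-Q6 had 1121 and 2000 reads (1.65-fold higher) and H2-Q7 had 4936 and 3387 reads (1.58-fold lower), both short of 2-fold.

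Reads of near-identical class I genes can be shared, and how the authors' counting treated them is not known. Of the 50-base windows in GENCODE M21 transcripts of H2-K1, 9.63% also occur in transcripts of another gene, most often H2-Q10, and for H2-D1 the share was 12.8%, most often H2-Q1. For 100-base windows the shares were 0.957% and 3.59%. They were far larger for H2-T22 (53.5% at 50 bases), H2-Q6 (35.0%) and H2-Q7 (26.5%), so the counts of these genes are uncertain. H2-Q2 shared 16.1%. B2m, Cd86 and H2-Ob shared no 50-base window with any other gene. Nlrc5 shared 0.339%. Tap1 shared 3.33%, mostly with Psmb9 on the other strand, and Tap2 11.6%, mostly with Gm15821 on the other strand. Tapbp shared 23.2%, mostly with Gm19412, and H2-DMa shared 8.43%, all with Brd2. Whether strand was used in counting was not given in the sources used here.

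All 15 listed genes of peptide supply and loading, the members B2m, Tap1, Tap2 and Tapbp included, were measured. Of these, 1 was called lower and 0 higher. The share called lower is near the 7.07% of all measured genes. The median log2 ratio of the list was -0.29. The lower gene was Tapbpl, which encodes the tapasin relative TAPBPR, with 971 and 505 reads (2.08-fold lower, 1.87 to 2.32). Subunit genes of the immunoproteasome, the proteasome form that cuts peptides for class I, were near the class I members. Psmb9, which lies head to head with Tap1, had 2053 and 1680 reads and was 1.32-fold lower (1.24 to 1.41). Psmb8 had 2437 and 2160 reads and was 1.22-fold lower. General chaperones of the endoplasmic reticulum on the same list had ratios on the other side of equality: Calr, which encodes calreticulin, had 4054 and 6304 reads (1.44-fold higher, 1.382 to 1.496). Pdia3, the thiol oxidoreductase gene, had 5748 and 8361 reads (1.34-fold higher, 1.30 to 1.39).

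Most class II genes were barely detected in either library. Of 17 genes on the class II list 8 were measured, and H2-Ob was the lower one, 1 gene was higher and the other 6 had no call. These counts stand beside 7.07% lower and 6.65% higher among all measured genes. The median log2 ratio of the list was 0.24. Lgmn (0.66), Ctsl (0.71), Ifi30 (0.51) and the higher gene lay above 0. Ctss (-0.48), Cd74 (-0.39), H2-DMa and H2-Ob lay below 0. Ctss had the most reads of the list, 1300 and 1010. Ciita, the class II transactivator gene, had 1 read in each library. The classical chain genes H2-Aa, H2-Ab1 and H2-Eb1 had 9, 15 and 5 effector reads and 3, 11 and 4 exhausted reads. Cd74, which encodes the invariant chain, had 64 and 53 reads. The partner chains of the 2 class II members were also low: H2-Oa, partner of H2-Ob, had 26 and 3 reads, and H2-DMb1 and H2-DMb2, partners of H2-DMa, had 8 and 18 effector reads and 3 and 11 exhausted reads. Per length H2-DMa stood at 29.5 times H2-DMb1 in the effector library, and at 83.4 times, from 3 reads of H2-DMb1, in the exhausted library. H2-Ea-ps, the locus that encodes the antigen chain in BALB/c mice, had 0 and 2 reads.

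The higher gene on the class II list was March8, which encodes a ubiquitin ligase known to remove class II molecules and CD86 from the cell surface. It had 3 effector and 88 exhausted reads and was 27.1-fold higher (8.98 to 134). Its relative March1, with the same known targets, had 1 and 2 reads. The count table writes both symbols as calendar dates, and they were matched by gene ID. March8 and Cd86 thus differed in opposite directions between the libraries, each from a few reads in 1 of them.

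Of the regulators of MHC genes 1 passed the 2-fold rule. Of 11 listed regulators, the member Nlrc5 included, 10 were measured, with 1 called higher and 0 lower. Among all measured genes 6.65% were higher and 7.07% lower. The median log2 ratio of the list was -0.30. Nfkb1, which encodes the p50 subunit of NF-kappa B and its precursor, had 718 and 1817 reads and was 2.34-fold higher (2.14 to 2.55). Among the measured regulators without a call, the largest differences were those of Nfya, a Y box factor gene, Rfx5, an X box factor gene, and Nlrc5, given above. Nfya had 76 and 156 reads (1.90-fold higher, 1.43 to 2.53), and Rfx5 had 147 and 91 (1.75-fold lower, 1.34 to 2.30). Genes of the interferon gamma receptor pathway, an inducer of class I genes, were all 12 measured. Of these, 2 were called lower and 0 higher, against 7.07% and 6.65% of all measured genes. Their median log2 ratio was -0.26. Ifng, the cytokine gene itself, had 203 and 24 reads and was 9.15-fold lower (5.98 to 14.6). Irf8, an interferon regulatory factor gene, had 376 and 54 reads and was 7.53-fold lower (5.65 to 10.2). Irf1, another factor gene of this family, had 2517 and 2450 reads, which was short of 2-fold.

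Among B7 family genes and their receptors Cd86 was the gene that fell. Of 10 listed genes 7 were measured, with Cd86 the lower one, 1 higher and 5 without a call. Among all measured genes 7.07% were lower and 6.65% higher. The median log2 ratio of the list was 0.60. Icosl, which encodes the ligand of ICOS, had 26 and 89 reads and was 3.16-fold higher (2.02 to 5.11). Cd80, the closest relative of Cd86 in function, had 2 effector reads and 0 exhausted reads, both under the floor of 3 reads. Cd274, which encodes PD-L1, had 481 and 563 reads and was equal within counting error. The receptors of CD86 did not reach 2-fold: Cd28 had 5102 and 9111 reads (1.65-fold higher, 1.595 to 1.709) and Ctla4 464 and 762 (1.52-fold higher, 1.35 to 1.71).

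**Figure D4:**
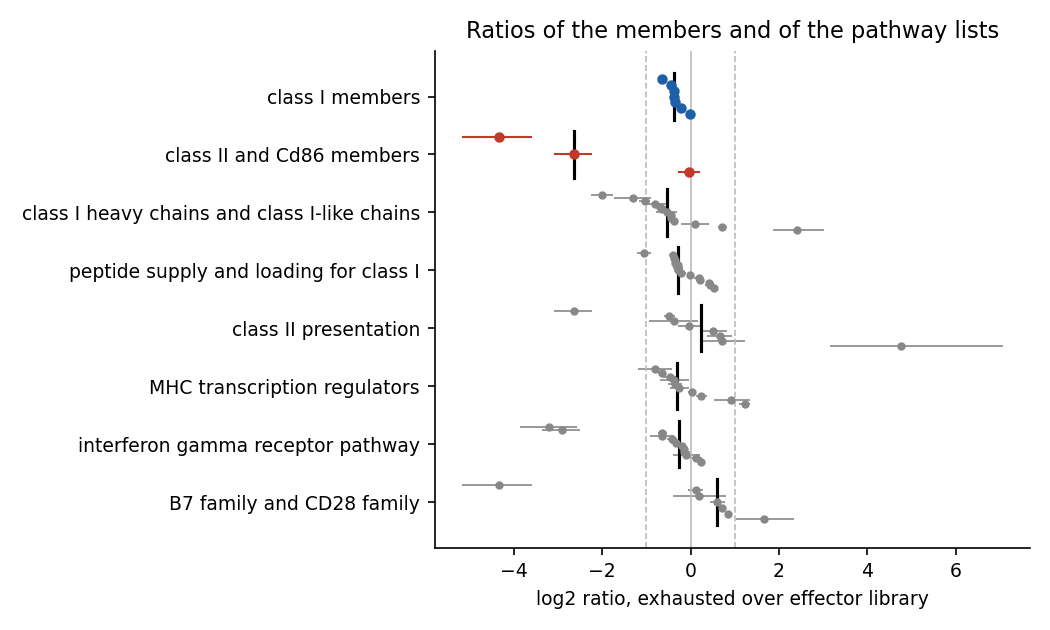
Log2 ratio of exhausted to effector library with counting intervals for the class I members (blue), Cd86, H2-Ob and H2-DMa (red) and the measured genes of 6 pathway lists (grey, which include members); black bars are medians and dashed lines mark 2-fold. The class I members bunch between -0.65 and -0.01, the last being Tapbp, whose sign turns with DESeq2 size factors and upper-quartile scaling, whereas Cd86 and H2-Ob lie at -4.33 and -2.65.

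Genes beside the members were called about as often as genes at large. Tap1, Tap2, H2-DMa and H2-Ob lie within one stretch of chromosome 17, with Psmb9, Psmb8 and Brd2 as the other measured genes around Tap1. H2-Ob, the gene of this stretch that was lower, starts 51.4 kb after the start of Tap1. Within 100 kb of any member lay 36 measured genes that are no member, of which 2 were called higher and 2 lower, near the shares over all measured genes (6.65% and 7.07%). Their median log2 ratio was 0.09. The lower genes were Lta, the lymphotoxin alpha gene near H2-D1 (316 and 67 reads), and Ildr1 near Cd86 (76 and 23 reads). The higher ones were Prrc2a (274 and 678 reads) and H2-Q2, both near H2-D1. All 14 measured neighbours of H2-K1, all 16 of Tapbp and all 3 of B2m were neither.

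**Figure D5:**
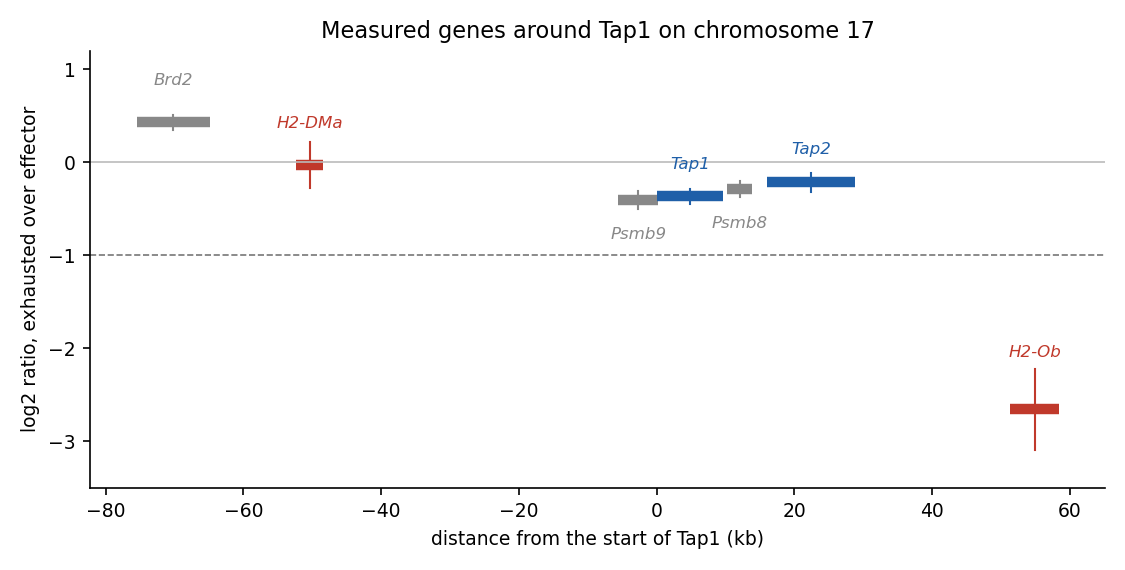
Log2 ratio of exhausted to effector library for the measured genes around Tap1, with the distance from the start of Tap1 in kb on the x axis; thick bars span each gene, thin lines are counting intervals and the dashed line marks 2-fold. H2-Ob lies under the dashed line and the other 6 genes lie above it.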

How the data were processed

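RNA of sorted TEa cells was sequenced in 2 libraries. Per the labels' protocols, RNA was taken up in Trizol from frozen cells, and a Takara kit for low input was used for the libraries. The values the authors deposited are raw read counts per gene in whole numbers, and, per the file headers, each gene's length in bases. STAR 2.6 and the build mm10 are named per the submitters' processing notes. The counting program, annotation release, strand setting and treatment of shared reads were not given in the sources used here. No molecular identifiers are recorded, so amplified copies may make intervals too narrow.

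Of 35275 genes, 9999 had at least 50 reads over both libraries. Counts were divided by effective library sizes (edgeR 4.0.16, trimmed mean of M-values over those genes, R 4.3.3). Intervals of ratios were computed from exact Clopper-Pearson bounds on the exhausted share of a gene's reads (scipy 1.17.1), and a count of 0 was set to a floor of 3 reads. The call rule and intervals were tested on data simulated with counting error alone. That test therefore does not cover spread between animals or amplification. Members, 6 pathway lists and 9 marker lists were chosen with earlier results of these data known. Of list entries, 4 were matched by gene ID only and 1 (Ighd) was not matched. Named were all members, the called genes of each pathway list (up to 4 per direction), the gene with the most reads of each marker list, and called neighbours within 100 kb. All other genes named, the TGATG search, the spacing of TGACG and ATTGG and the windows of shared sequence were chosen after values were seen. Some listed genes are not reported here. No gene was named for a similar pattern, since over 2 libraries a pattern is 1 ratio. Alternatives changed the scaling (DESeq2 1.42.0, total counts, upper quartile), read minimum, depth, fold, floor and list summary.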

Additional observations from a re-analysis of the deposited data

How the results depend on the processing

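Of 301 recomputed values, 270 stayed near the main value. For a member's ratio, near meant a shift smaller than the average reach of its counting interval to either side. For a list median it meant a shift smaller than the median reach of its genes' intervals. The median over all genes had a fixed limit, and a count had to stay within 1.5 times. The ratios of the called members, Cd86 and H2-Ob, did not change sign. Some values could not move, since a changed read minimum leaves a gene's own ratio as it was. Stricter fold or interval rules cannot add a call. No paired analysis was possible because each group is 1 library. The log2 ratio of Cd86 ranged from -4.33 to -4.16 and that of H2-Ob from -2.67 to -2.60 over 6 alternatives each. The class I members gave no call in either direction under any alternative. DESeq2 size factors moved H2-K1 to -0.41 and H2-D1 to -0.35 and turned the sign of Tapbp (0.013), as did upper-quartile scaling (0.0013). With at least 500 reads, Cd86 and H2-Ob were not measured: members called lower fell to 0 and their median log2 ratio was -0.0275, from H2-DMa alone. That minimum left 0 higher genes among class I chains, class II and B7 lists and 0 lower among class II, interferon gamma and B7 lists, with a class II list median of -0.25. With at least 1 read the class II list had 2 lower genes and a median of -0.46. From summed counts, log2 ratios were -1.41 for Cd86, H2-Ob and H2-DMa, -0.0766 for peptide supply, -0.26 for the class II list and -0.0292 for MHC regulators. With the interval wholly beyond 2-fold, 1 class I chain and 0 peptide supply genes were lower. At least 4-fold left 0 lower class I chains, 0 lower peptide supply genes, 0 higher regulators and 0 higher B7 list genes. By the main rule, 665 of 9999 measured genes were higher and 707 lower. Over the same genes the counts were 408 and 453 (interval beyond 2-fold) and 220 and 238 (4-fold). With other read minimums they were 1040 and 1102 (at least 1 read) and 244 and 264 (500 reads). Those minimums change how many genes are measured, so these counts cannot be compared with the others as shares. Calls on the lists at those minimums can likewise be out of other numbers of genes. Depth limits the genes with few reads in 1 library, such as Cd86 and March8.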
